A study of Mus musculus with 9 samples.

Results

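The core activators and several repressors of the circadian clock, Arntl, Clock, Npas2, Cry1, Cry2, Nfil3 and Bhlhe40, were followed across the proximal colons of 9 single mice. All probe sets annotated with 1 of these 7 gene symbols were taken, which covered 7 of the 12394 genes with a probe set of their own symbol and gave 9 of the 22690 probe sets on the array, and 8 of the 9 passed the filter on dim signals. A probe set is a group of short probes that read 1 transcript, and its signal is in arbitrary linear units that cannot be compared between probe sets. Clock and Npas2 are each read by a pair of probe sets, so these are not independent measurements. The genes were picked by symbol, but the grouping was chosen by someone who knew earlier signal values and fold changes of these same arrays, so values between genotypes are given as a description and are no independent evidence.

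The mice were 3 labelled mutant, 3 heterozygotes and 3 wild-type animals for cSHMT, the cytosolic serine hydroxymethyltransferase encoded by Shmt1, each colon on its own array. All 9 had the C57Bl/6 background after 10 generations of backcrossing, were 9 weeks old, and were weaned at 3 weeks onto a diet without folate and choline that lasted 6 weeks by one label and 5 weeks by another. No group ate a complete diet. How the allele was made and the hour at which colons were taken are not stated in the labels. Shmt1 itself, on the probe set that separated the genotypes best, averaged 117 ± 3.46 in mutant, 303 ± 31.6 in heterozygous and 595 ± 43.2 in wild-type colons (signal, SD, n = 3 each), which follows the genotype labels. That probe set was picked for this separation. On the one brightest on average, means were 258 ± 25.3, 418 ± 67.9 and 493.5 ± 33.4 in the same order. Mutant values lay below all others on every Shmt1 probe set, but heterozygous and wild-type values overlapped on all but the first.

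The circadian clock is a transcriptional loop that runs in nearly every cell, including those of the gut. ARNTL, also known as BMAL1, pairs with CLOCK or its paralog NPAS2 and binds E-box motifs, which drives the Per and Cry genes, the nuclear receptor genes Nr1d1 and Nr1d2, and output genes such as Dbp, Tef and Usp2. PER and CRY proteins then block the activators, while the NR1D proteins repress Arntl, Npas2 and other genes through a motif called the RORE, where ROR proteins activate. Transcripts of the Arntl group and those of the E-box targets therefore peak at different times of day in rodent tissues. NFIL3 represses through the D-box, the motif that DBP, TEF and HLF activate, and BHLHE40 represses through E-boxes.

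Promoter sequences of 6 of the 7 genes, all but Bhlhe40, were available from RefSeq (GRCm38.p6), each holding 250 bases before and 50 bases from a transcription start. They are shown for Arntl and Npas2, whose transcripts ran together, and for Cry1 and Nfil3, whose windows hold motifs of the loop. Capitals mark matches on either strand to CACGTG (E-box), CACGTT (a variant E-box), TAGGTCA or TGGGTCA (cores of the RORE), and TTATGTA or TTATGCA (cores of the D-box); matches did not overlap.
Arntl, chr7:113207261-113207560, plus strand: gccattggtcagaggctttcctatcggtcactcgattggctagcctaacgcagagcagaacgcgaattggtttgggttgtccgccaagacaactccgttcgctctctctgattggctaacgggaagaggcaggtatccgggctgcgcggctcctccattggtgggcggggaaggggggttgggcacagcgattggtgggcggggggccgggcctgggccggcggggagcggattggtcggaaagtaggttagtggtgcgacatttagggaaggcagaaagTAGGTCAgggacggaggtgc
Npas2, chr1:39194022-39194321, plus strand: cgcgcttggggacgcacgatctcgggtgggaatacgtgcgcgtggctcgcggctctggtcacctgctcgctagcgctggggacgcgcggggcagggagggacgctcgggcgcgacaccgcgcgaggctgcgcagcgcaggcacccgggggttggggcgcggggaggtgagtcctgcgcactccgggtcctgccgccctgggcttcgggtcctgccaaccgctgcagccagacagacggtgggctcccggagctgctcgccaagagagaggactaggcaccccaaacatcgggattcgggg
Cry1, chr10:85185005-85185304, minus strand: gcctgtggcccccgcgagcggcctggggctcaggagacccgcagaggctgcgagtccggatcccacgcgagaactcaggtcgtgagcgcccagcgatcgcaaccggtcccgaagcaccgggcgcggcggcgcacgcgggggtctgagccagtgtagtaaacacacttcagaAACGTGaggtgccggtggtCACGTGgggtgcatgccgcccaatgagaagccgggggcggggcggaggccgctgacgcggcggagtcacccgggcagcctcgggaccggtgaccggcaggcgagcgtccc
Nfil3, chr13:52980990-52981289, minus strand: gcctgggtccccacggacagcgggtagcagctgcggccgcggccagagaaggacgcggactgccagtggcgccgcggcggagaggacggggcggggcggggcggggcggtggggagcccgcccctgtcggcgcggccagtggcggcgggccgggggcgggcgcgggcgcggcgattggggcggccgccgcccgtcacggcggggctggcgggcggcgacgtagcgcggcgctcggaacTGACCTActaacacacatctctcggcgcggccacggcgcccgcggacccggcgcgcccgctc
Arntl has a pair of windows, whose starts lie close together, and the other one, chr7:113207215-113207514, held none of the 6 motifs. In the Arntl window shown TAGGTCA began 31 bases after the start, counting the first transcribed base as 1, and in the Nfil3 window it lay on the opposite strand with its first base at -12. Cry1 held CACGTG at -60 and, on the opposite strand, CACGTT at -79, and the Cry2 window, not shown, held CACGTT on the opposite strand at -166. The Npas2 window and the 3 Clock windows held none of the 6 motifs. Of 32851 promoter windows of the same length, 7.15% held CACGTG, 4.68% CACGTT, 2.61% TAGGTCA, 3.98% TGGGTCA, 2.63% TTATGTA and 2.34% TTATGCA. A match is a run of letters and does not show binding.

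Of the activators, Arntl (probe set 1425099_a_at) was highest in the mutant colons. Its signal was 233.7, 230.8 and 273.9 in the 3 mutant mice, 59.1, 98.4 and 230.7 in the 3 heterozygous mice, and 177.2, 104.3 and 192.8 in the 3 wild-type mice. Every mutant value lay above every wild-type value, and above the heterozygous values too, although heterozygous 3 came within 0.1 units of mutant 2. The heterozygous mice were the most spread, with the lowest colon of all 9 and another that reached the mutant level. Means were 246 ± 24.1 in mutant, 129 ± 89.9 in heterozygous and 158 ± 47.2 in wild-type colons (SD, n = 3 each). On the normalized log2 scale, with 16 added to each signal, the difference was 0.63 (SE 0.341) for mutant against wild-type, a 1.54-fold higher level, and 1.05 (SE 0.341) for mutant against heterozygous, a 2.08-fold higher level. With arrays weighted by their fit, the mutant against wild-type difference was 1.08 on the log2 scale, and without wild-type 2 it was 0.35. Without the 3 arrays numbered 1, mutant against heterozygous was 0.69. For heterozygous against wild-type the difference was -0.43 (SE 0.341), was -0.10 without heterozygous 1, and took the other sign with array weights (0.11) and without the 3 arrays numbered 1 (0.08).

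Npas2, which stands in for Clock as the partner of ARNTL, followed Arntl from mouse to mouse. On its brighter probe set, 1421037_at, the signal was 534.4, 491.4 and 710.2 in mutant, 176.2, 338.7 and 540.6 in heterozygous and 427.4, 343.7 and 637.4 in wild-type colons. Heterozygous 1 was again the lowest of the 9 colons and mutant 3 the highest, a 4.03-fold span, against a 4.63-fold span for Arntl between the same 2 mice. Here the genotypes overlapped, since wild-type 3 and heterozygous 3 both lay above mutant 1 and mutant 2. Means were 579 ± 116 in mutant, 352 ± 183 in heterozygous and 470 ± 151 in wild-type colons (SD, n = 3 each). Log2 differences were 0.32 (SE 0.309) for mutant against wild-type, -0.49 for heterozygous against wild-type and 0.81 for mutant against heterozygous. Without heterozygous 1 the last 2 became -0.14 and 0.46, and with array weights heterozygous against wild-type was -0.01.

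A second Npas2 probe set, 1421036_at, was too dim to be tested. It read 26.5, 25.9 and 63.4 in mutant, 29.4, 26.0 and 56.1 in heterozygous and 36.8, 40.1 and 42.8 in wild-type colons, without the low value of heterozygous 1 seen on the brighter probe set. Over 9 arrays the pair of Npas2 probe sets correlated with r = 0.49 and rho = 0.53 (exact permutation p = 0.178 and 0.148, r = 0.30 without the 2 arrays farthest from the median). What is said of Npas2 below rests on the brighter probe set.

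Clock, the third activator, behaved differently from Arntl and Npas2. On the brighter of its probe sets, 1418659_at, the signal was 571.7, 633.3 and 913.4 in mutant, 606.6, 927.5 and 1146.1 in heterozygous and 559.7, 793.4 and 989.9 in wild-type colons. The other, 1418660_at, read 203.7, 216.2 and 289.8 in mutant, 189.1, 216.5 and 286.4 in heterozygous and 147.7, 215.5 and 286.5 in wild-type colons. The 3 genotypes overlapped on both, and within each genotype the array numbered 1 was lowest and the array numbered 3 highest. Log2 differences on the brighter probe set were -0.14 (SE 0.226) for mutant against wild-type, 0.17 for heterozygous against wild-type and -0.32 for mutant against heterozygous. On the other they were 0.15, 0.09 and 0.06, so the probe sets differed in sign for both comparisons of mutant colons. The pair of probe sets correlated over 9 arrays with r = 0.71 and rho = 0.68 (exact permutation p = 0.0357 and 0.0503), and with r = 0.52 without the 2 arrays farthest from the median.

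The array numbers also went with a 3' to 5' signal ratio, an indirect measure of RNA integrity. A 3' to 5' ratio for beta-actin, which rises as the labelled RNA is shortened from its 5' end, was 4.45 to 5.02 in the arrays numbered 1, 3.05 to 3.75 in those numbered 2 and 2.52 to 2.73 in those numbered 3. The same ratio for Gapdh separated the numbers less well. It was 2.26 in both mutant 1 and mutant 2, above heterozygous 1 (2.18). Across 9 arrays the brighter Clock probe set fell as the log2 of the beta-actin ratio rose (r = -0.93, rho = -0.95, exact permutation p = 0.000705 and 0.000353, adjusted over 8 probe sets 0.00564 and 0.00282). Without the 2 arrays of most extreme ratio r was -0.91, and 0.854% of the 13576 probe sets tested had an r as low. For the other Clock probe set r was -0.76 (rho = -0.77, exact permutation p = 0.0197 and 0.0214, adjusted 0.0787 and 0.0856), a value reached by 8.74% of all probe sets tested. Arntl showed no such relation (r = -0.06, rho = 0.07, exact permutation p = 0.881 and 0.88, adjusted 0.881 and 0.88), although without the 2 arrays of most extreme ratio its r was -0.58. For the brighter Npas2 probe set r was -0.32 (rho = -0.43, exact permutation p = 0.41 and 0.25, adjusted 0.67 and 0.666), and -0.78 without those 2 arrays. With the ratio as a covariate in the fit, an alternative chosen after seeing the data, the log2 differences of the brighter Clock probe set were -0.07, 0.12 and -0.19 in the order given above, and those of Arntl 0.66, -0.45 and 1.11.

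**Figure D1:**
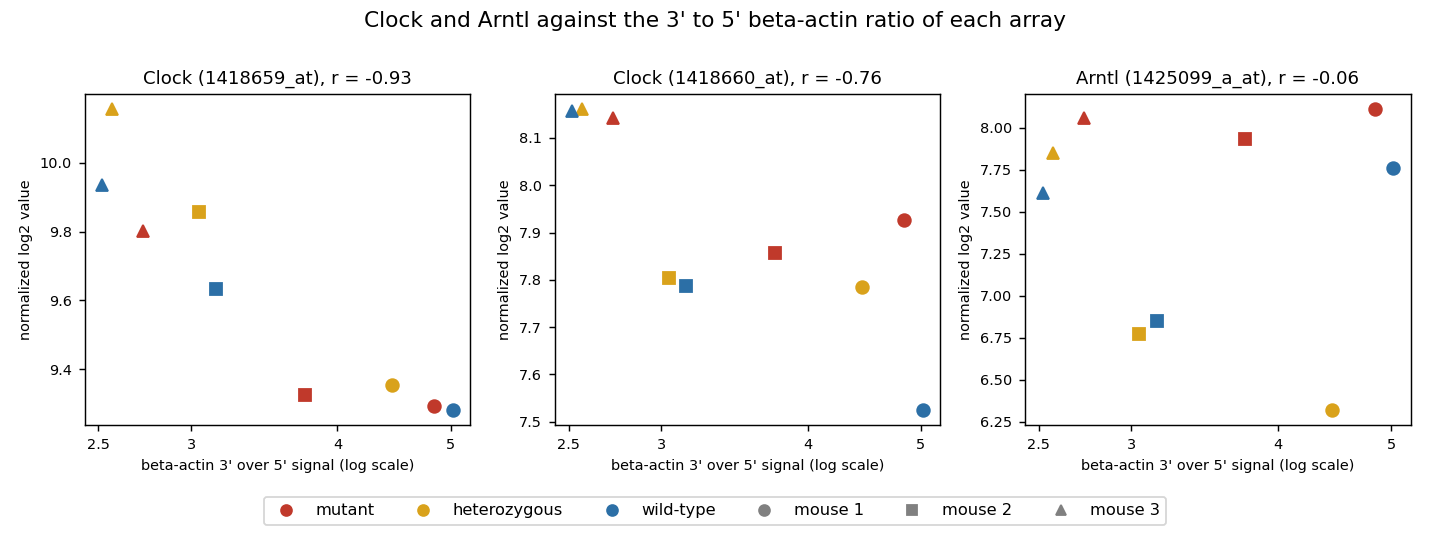
Normalized log2 values of both Clock probe sets and of Arntl (vertical axes) against the 3' to 5' beta-actin ratio of each array (horizontal axes, log scale). Colours are genotypes and symbols the mouse numbers. The brighter Clock probe set falls along the ratio (r = -0.93), while Arntl does not (r = -0.06).

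Among the repressors, the Cry genes encode the cryptochromes, which bind and silence the activator pair. Cry1 (1433733_a_at) read 301.2, 553.0 and 590.7 in mutant, 287.4, 439.3 and 351.9 in heterozygous and 410.1, 557.7 and 504.3 in wild-type colons. Mutant 1 was low and lay among the heterozygous values, while mutant 2 lay within the wild-type range and mutant 3 above it. Log2 differences were -0.45 (SE 0.197) for heterozygous against wild-type, -0.08 for mutant against wild-type and 0.37 for mutant against heterozygous, and the second took the other sign without mutant 1 (0.16). On normalized values the heterozygous mice lay below all wild-type mice, but on the deposited signals heterozygous 2 (439.3) lay above wild-type 1 (410.1).

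Cry2 (1426383_at) was on average highest in heterozygous colons. It read 280.5, 269.6 and 254.7 in mutant, 354.5, 278.9 and 295.7 in heterozygous and 175.1, 263.7 and 281.8 in wild-type colons. The low outer value was wild-type 1 and the high one heterozygous 1, and the deposited signals of the genotypes overlapped. Log2 differences were 0.35 (SE 0.171) for heterozygous against wild-type, 0.16 for mutant against wild-type and -0.19 for mutant against heterozygous. After normalization the heterozygous mice lay above all wild-type mice. The heterozygous against wild-type difference was 0.20 without heterozygous 1, 0.23 without wild-type 1 and 0.08 without the 3 arrays numbered 1, so it rested in part on the outer mice.

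Nfil3 (1418932_at), the D-box repressor, which also acts in lymphocytes, spread as widely as Arntl but in other mice. Its signal was 105.8, 203.3 and 186.7 in mutant, 141.1, 84.1 and 179.1 in heterozygous and 325.1, 157.0 and 179.6 in wild-type colons. Wild-type 1 stood far above the other 8 colons, and the rest of the wild-type mice lay within the mutant range. Means were 165 ± 52.2 in mutant, 135 ± 47.8 in heterozygous and 221 ± 91.2 in wild-type colons (SD, n = 3 each). Log2 differences were -0.34 (SE 0.331) for mutant against wild-type and -0.66 (SE 0.331) for heterozygous against wild-type, and without wild-type 1 the first became 0.03 and the second -0.28. Wild-type 1 also had the highest summed signal of the T cell, macrophage, interferon-induced and adipocyte markers, and the highest beta-actin ratio (5.02). The next highest T cell sums were those of mutant 1 (1707.8) and heterozygous 2 (1604.8), the mice with the lowest Nfil3 signals. For 5 of 6 T cell genes read by a probe set of their own, 3 of them past the filter on dim signals, the sums were 437.5 to 1707.8 in mutant, 383.7 to 1604.8 in heterozygous and 770.4 to 1932.6 in wild-type colons. The part of these cells and of RNA integrity in the Nfil3 signal was not tested, and in whole tissue fewer cells of a type and less RNA per cell cannot be told apart.

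Bhlhe40 (1418025_at) was the steadiest of the 7 genes. Its signal was 2178.3, 1889.7 and 1889.4 in mutant, 1912.2, 2225.3 and 2026.6 in heterozygous and 2261.9, 1990.3 and 2282.6 in wild-type colons. The 3 genotypes overlapped and the highest colon was 1.21 times the lowest. Log2 differences were -0.14 (SE 0.095), -0.07 and -0.07 for mutant against wild-type, heterozygous against wild-type and mutant against heterozygous. Hypoxia is known to induce Bhlhe40, and 7 hypoxia-induced genes tested had median log2 differences of -0.03, 0.03 and -0.09 in the same comparisons.

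**Figure D2:**
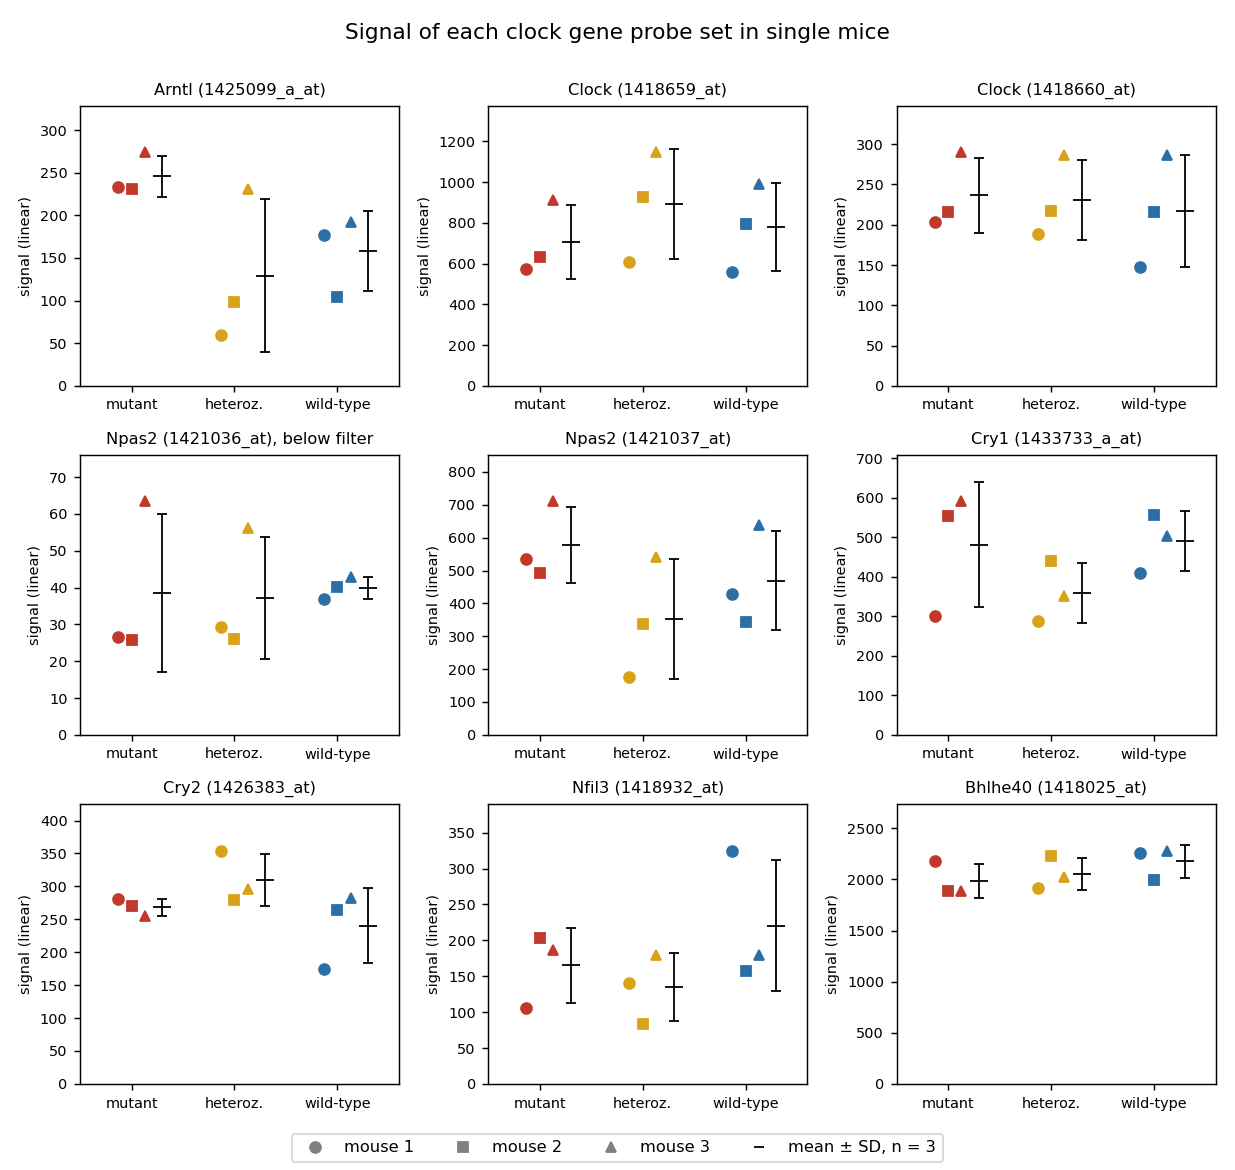
Deposited linear signal (vertical axes, arbitrary units from 0) of the 9 probe sets in each mouse, by genotype from mutant to wild-type, with the mean and SD of 3 mice in black. The 3 mutant colons sit highest for Arntl, heterozygous 1 is lowest for Arntl and the brighter Npas2 probe set, wild-type 1 stands apart for Nfil3, and Bhlhe40 hardly varies.

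Between genotypes, no probe set of the 7 genes passed an adjusted p of 0.05 in limma's test over all probe sets, in any of the 3 comparisons. In mutant against wild-type colons 0 of 8 passed, where 0.0221% of all 13576 probe sets did, and 0 of 8 had an unadjusted p under 0.05, where 3.84% of all did. In heterozygous against wild-type colons 0 of 8 passed (0.0% of all), and 1 of 8, Cry1, had an unadjusted p under 0.05 (8.01% of all). In mutant against heterozygous colons 0 of 8 passed (0.0221% of all), and 2 of 8, Arntl and Npas2, had an unadjusted p under 0.05 (7.56% of all). Normalized values did not overlap, with the mutant colons higher, for 1 of the 8, Arntl, against wild-type (4.23% of all probe sets) and for 1 of the 8, Arntl again, against heterozygous colons (6.35% of all). With the mutant colons lower there were 0 of 8 against wild-type (4.19% of all) and 0 of 8 against heterozygous colons (6.08% of all). Against wild-type, heterozygous values lay apart on the high side for Cry2 (7.28% of all) and on the low side for Cry1 (7.42% of all).

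**Figure D3:**
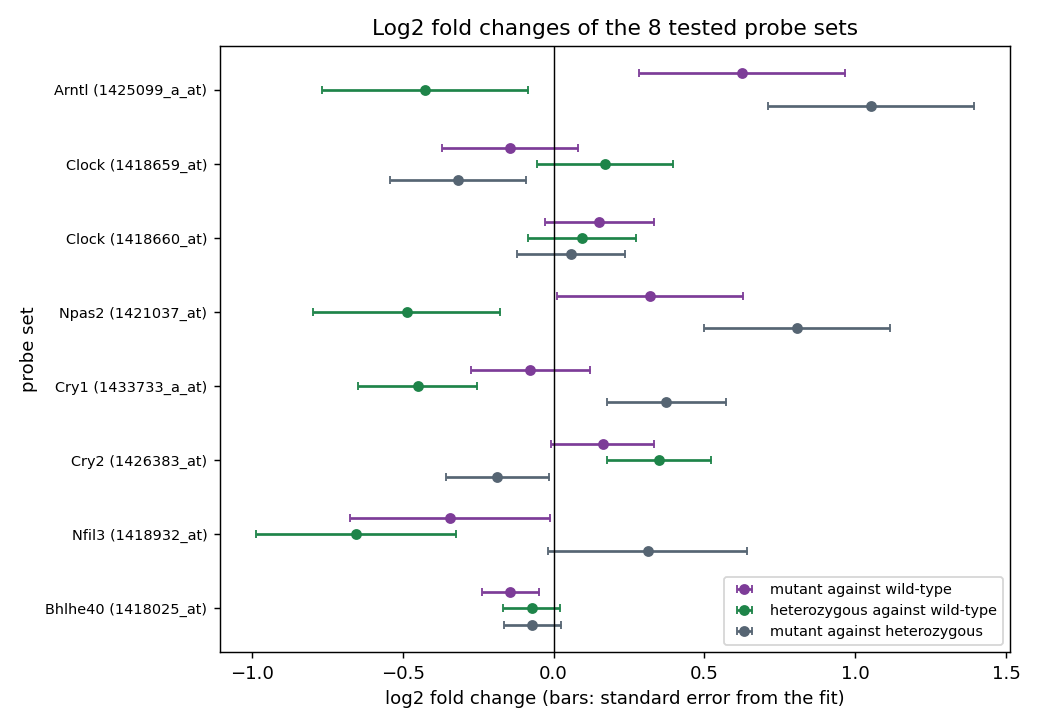
Log2 fold changes of the 8 tested probe sets (horizontal axis), with standard errors from the fit, in the 3 comparisons. Arntl and Npas2 lie to the right for mutant against heterozygous colons (1.05 and 0.81) and Bhlhe40 lies near 0 in each comparison.

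Over leading probe sets, the brightest of each gene, the 7 genes had no common direction. Mutant against wild-type, 3 were higher and 4 lower, with a median log2 difference of -0.08, where the median of all probe sets tested was 0.00365. Heterozygous against wild-type, 2 were higher and 5 lower, with a median of -0.43 beside -0.00441 for all. Mutant against heterozygous, 4 were higher and 3 lower, with a median of 0.31 beside 0.0013 for all. The comparisons with wild-type share the same 3 wild-type arrays.

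Mice of 1 genotype differed from each other in most of these genes. The SD of log2 values within genotypes, pooled over the 3 genotypes, was 0.537 for Arntl, 0.518 for Nfil3 and 0.486 for Npas2, which put them at percentiles 98.6, 98.5 and 98.03 of the 13576 probe sets tested. It was 0.342 for the brighter Clock probe set, 0.28 for Cry1, 0.236 for the other Clock probe set and 0.223 for Cry2, against a median of 0.173 over all. Bhlhe40, at 0.112, was below that median, so 7 of the 8 tested probe sets lay above it. These values do not use the differences between genotypes, but the genes were grouped with these arrays known, so they too are a description. Both Clock probe sets also fell as the beta-actin ratio rose (r = -0.93 and -0.76).

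The other genes of the clock were taken from a list of 24, of which 20 had a probe set with that symbol alone and 16 a leading probe set past the filter. By limma, 0 of the 16 passed an adjusted p of 0.05 in each comparison. At an unadjusted p under 0.05 there were 2 of 16 in mutant against wild-type (3.84% of all probe sets), 2 of 16 in heterozygous against wild-type (8.01% of all) and 5 of 16 in mutant against heterozygous colons (7.56% of all). In mutant against wild-type colons 12 of the 16 were lower and 4 higher, with a median log2 difference of -0.13, and in mutant against heterozygous colons again 12 were lower and 4 higher, with a median of -0.22. In heterozygous against wild-type colons 12 were higher and 4 lower, with a median of 0.16. The 4 left out as too dim included Arntl2, the paralog of Arntl, whose signal was 2.0 or less in mutant, 9.3 or less in heterozygous and 8.0 or less in wild-type colons.

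Per2, Tef and Usp2, which the activators drive, averaged lowest in mutant and highest in heterozygous colons. On its leading probe set Dbp averaged 2006 in mutant, 2340.2 in heterozygous and 1999.6 in wild-type colons. On a second, dimmer tested probe set Dbp averaged 328, 510 and 383 in the same order, also lowest in mutant and highest in heterozygous colons, with overlapping values. Per2, which encodes a partner of the cryptochromes, read 114.1, 149.2 and 276.5 in mutant, 456.0, 320.7 and 333.0 in heterozygous and 200.4, 443.8 and 262.6 in wild-type colons, with a log2 difference of -1.02 (SE 0.282) for mutant against heterozygous. Tef, a D-box activator, read 929.2, 936.7 and 905.8 in mutant, 1770.1, 1488.8 and 1438.8 in heterozygous and 1024.1, 1572.6 and 1207.9 in wild-type colons. Usp2, a ubiquitin protease of clock output, read 1333.3, 1402.7 and 1575.3 in mutant, 2877.4, 2116.7 and 1696.6 in heterozygous and 1486.3, 2018.3 and 1709.0 in wild-type colons. On these leading probe sets the mutant values of all 3 lay below every heterozygous value. These 3 were printed after their values were seen. On normalized values the same held for 5 of the 16 genes, these 3 with Per1 and Hlf, and for 6.08% of all probe sets. The mutant values of Tef also lay below every wild-type value, which on normalized values held for 1 of the 16 (4.19% of all). On a second tested probe set Usp2 overlapped, with mutant 3 at 158.5 and heterozygous 3 at 140.4. A second tested Tef probe set overlapped wild-type colons (mutant 2 at 195.1, wild-type 1 at 103.7) and, after normalization, heterozygous ones. Nr1d1, the repressor of Arntl, did not average lowest in mutant colons. It read 377.1, 372.6 and 327.1 in mutant, 223.7, 468.2 and 211.2 in heterozygous and 275.0, 305.1 and 294.2 in wild-type colons.

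Mouse by mouse, Arntl ran with Npas2 and against several of these targets. These relations were computed on arrays whose results were known when the genes were grouped. Arntl was correlated over 9 arrays with 22 clock genes, the other 6 of the group and 16 more, and 6 pairs passed an adjusted p of 0.05 for Pearson's r by the exact permutation test (two-sided), 1 positive and 5 negative. With Npas2 r was 0.93 (exact permutation p = 0.00124, adjusted 0.00909) and rho 0.78 (p = 0.0172, adjusted 0.126, exact permutation). Usp2 gave the strongest opposite relation, with r = -0.95 (exact permutation p = 0.000306, adjusted 0.00673) and rho = -0.92 (exact permutation p = 0.00131, adjusted 0.0289). For Tef r was -0.88 (exact permutation p = 0.00123, adjusted 0.00909) and rho -0.88 (exact permutation p = 0.00308, adjusted 0.0338). Heterozygous 1, with the least Arntl and Npas2, had the most Usp2, Tef and Per2. All 3 mutant mice lay at the other end for Arntl and Tef, but for Per2 and Usp2 mutant 3 lay above wild-type 1.

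The remaining negative pairs were looser by rank. For Nr1d2 r was -0.83 and rho -0.58 (exact permutation p = 0.00941 and 0.108, adjusted 0.0345 and 0.297), for Hlf r was -0.83 and rho -0.75 (exact permutation p = 0.00418 and 0.0255, adjusted 0.023 and 0.137), and for Per2 r was -0.81 and rho -0.73 (exact permutation p = 0.007 and 0.0311, adjusted 0.0308 and 0.137). By rank, 2 of the 22 pairs passed, those with Usp2 and Tef. Per3 had an r of -0.73 that did not pass (exact permutation p = 0.021, adjusted 0.0661). Other genes that the activators drive did not pass either, with r of -0.65 for Dbp, -0.54 for Per1 and 0.08 for Nr1d1. Wee1 and Nampt, listed as clock targets, had r of -0.66 and -0.15 and did not pass. The other members went separate ways, with r of 0.38 for Nfil3, 0.21 for Cry1, 0.07 for Bhlhe40, 0.02 for Clock and -0.48 for Cry2, none past the threshold. Which negative pairs passed depended on the normalization (exact permutation test, adjusted over 22 pairs). On values as deposited Per2 did not pass (r = -0.67, adjusted 0.116), while Per3 (adjusted 0.024) and Wee1 (adjusted 0.0456) did. With median centring Nr1d2 did not pass (r = -0.63, adjusted 0.22). Npas2, Usp2, Tef and Hlf passed in both settings. By rank on values as deposited, Usp2 did not pass (adjusted 0.0592), while Tef, Npas2 and Hlf did.

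Within genotypes the signs of the 6 pairs were kept. After centring each genotype on its mean, r was 0.90 for Npas2, -0.92 for Usp2, -0.77 for Tef, -0.76 for Nr1d2, -0.63 for Hlf and -0.61 for Per2. Exact permutation within genotypes gave p = 0.0463, 0.0324, 0.0231, 0.0926, 0.0833 and 0.0972 in the same order. The smallest p possible there is 0.00463, too large for a lone pair to pass after adjustment over 22. Without the 2 arrays farthest from the median of Arntl, heterozygous 1 and heterozygous 2, r was 0.82, -0.86, -0.80, -0.73, -0.53 and -0.76. Without heterozygous 1 alone no pair passed after adjustment, with r = 0.88 for Npas2 (exact permutation p = 0.0112, adjusted 0.0818) and -0.92 for Usp2 (exact permutation p = 0.00275, adjusted 0.0606).

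**Figure D4:**
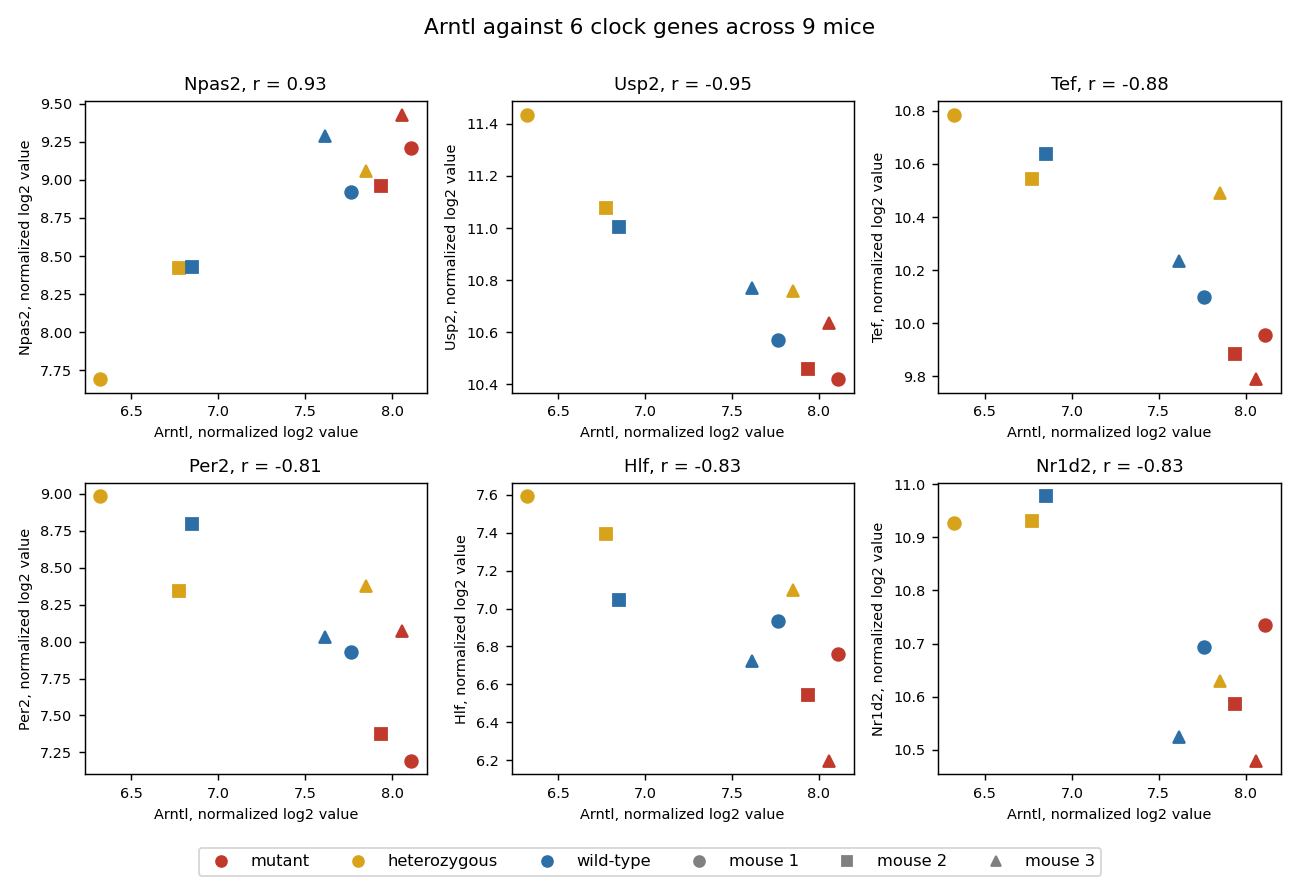
Normalized log2 values of 6 clock genes (vertical axes) against those of Arntl (horizontal axes) in 9 mice. Colours are genotypes and symbols the mouse numbers. Npas2 climbs with Arntl (r = 0.93), Usp2, Tef, Per2, Hlf and Nr1d2 go down, and heterozygous 1 lies at the far left of each panel.

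**Figure D5:**
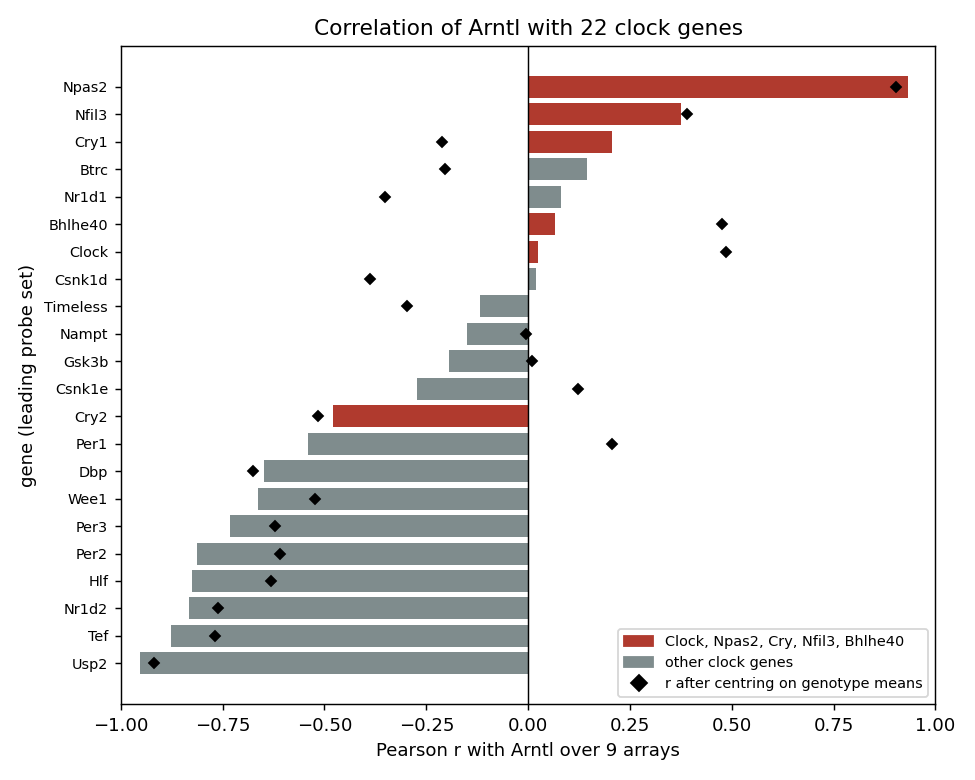
Pearson's r between Arntl and each of 22 clock genes over 9 arrays (bars, from -1 to 1), with r after centring on genotype means (diamonds). Npas2 stands alone at the positive end, and Usp2, Tef, Nr1d2, Hlf and Per2 at the negative end.

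Set against 8201 other genes with a tested probe set of their own, Npas2 had the highest r with Arntl of all and Usp2 the lowest. After Npas2 the genes most like Arntl over 9 arrays were Efnb2, an ephrin ligand (r = 0.91), Phf13, a PHD finger protein (0.91), Il18, an epithelial cytokine (0.91), and Nab2, a transcriptional corepressor (0.90). The most opposite after Usp2 were Clec3b, which encodes tetranectin (-0.94), Ccl12, a chemokine (-0.90), Tef (-0.88) and Map2k6, a kinase upstream of p38 (-0.87). Counted from the negative end, Nr1d2 ranked 13, Hlf 15, Per2 18 and Per3 52. Efnb2 was also the gene most like Npas2 (0.95), ahead of Arntl.

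The other members had different nearest genes. Those of Cry1 were Eci3 (r = 0.98), an enoyl-CoA isomerase gene, and Cdr2 (0.93). Those of Cry2 were Kdm2b (0.93), a histone demethylase gene, and Zfp326 (0.92), and those of Nfil3 were Plod1 (0.98), a lysyl hydroxylase gene, and Nit1 (0.92). Clock lay nearest to Itsn2 (0.98), an endocytic scaffold gene, and Adtrp (0.98), and Bhlhe40 to Rps4l (0.95) and Oasl1 (0.92). These values are an ordering over 9 arrays, without a test.

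The tissue read as colon, with 11 of 12 epithelial markers read by a probe set of their own, all past the filter, and Cpa1 and Cela2a of the exocrine pancreas near 0. Genes induced by glucocorticoids, hormones that vary over the day, were mostly lower in mutant and higher in heterozygous colons. Their summed signal over 7 genes, of which Per1 is also a clock gene, was 9542.9 to 10292.1 in mutant, 11361.5 to 13350.3 in heterozygous and 10527.4 to 12192.8 in wild-type colons, and 7 of 7 were lower in mutant than in heterozygous colons (median log2 difference -0.41). Against wild-type colons, 5 were lower and 2 higher in mutant colons (median -0.19), and 6 were higher and 1 lower in heterozygous colons (median 0.27). Adipocyte markers, 4 genes, summed to 3584.6 to 7326.6 in mutant, 6976.2 to 9690 in heterozygous and 7548.1 to 10782.3 in wild-type colons. Smooth muscle markers, 6 genes, summed to 22284.9 to 27001.2, 20274.6 to 22541.6 and 24927.4 to 25780.9 in the same order. Epithelial markers, 11 genes, summed to 37221.5 to 47839.2, 37324.1 to 44325.2 and 39523.9 to 46242.5. Their mean log2 value was lowest in heterozygous 2 (11.11) and heterozygous 1 (11.13), the colons with the least Arntl, and highest in mutant 1 (11.57). But wild-type 3 (11.53) lay above mutant 2 (11.30), which had more Arntl. By summed signal the order was another. Mutant 3, with the most Arntl, was lowest (37221.5), and heterozygous 1 (44325.2) lay above mutant 2 (40135.3). Mutant against heterozygous, the median log2 difference of the epithelial markers was 0.02, with single genes from -0.08 to 1.79. The part of these genes and cells in the Arntl pattern was not tested.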

How the data were processed

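Total RNA from 9 proximal colons, 50 ng each, was amplified with a NuGEN Ovation kit and hybridised 1 colon per array, per the labels' protocols. The deposited values are intensities, 1 linear signal per probe set and array, made with GCOS, the Affymetrix operating software, per the submitters' processing notes, whose version and scaling no label records. Signals were turned into log2(signal + 16), which shrinks fold changes of dim probe sets, and quantile normalized, because array medians spread over 0.294 (limit 0.2). Of 22690 probe sets, 64 controls and those with a mean under the 40th percentile (a signal of 75.5) were left out, leaving 13576. Gene names came from the platform annotation, and motifs were searched in RefSeq promoters (GRCm38.p6). No sequencing depth applies; the number of arrays limits precision.

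All 9 arrays were fitted at once with limma 3.58.1 (lmFit, eBayes with trend; R 4.3.3), without covariates, and p-values were adjusted (Benjamini-Hochberg) over all probe sets tested. Correlations used exact permutation tests over pairings (Python 3.11.15). The fit was also run on simulated data with independent noise in each array, a setting without the correlations between arrays given below. Members, gene lists and tests were chosen with earlier results of these arrays known. Named genes are the members, the listed clock genes and, by Pearson's r, the 5 most and least like Arntl and the 2 most like each other member; Per3, Nr1d1 and others with printed values come from the clock list, and which of that list were printed sample by sample was chosen after their values were seen. Same-numbered arrays were not paired in the main fit, although the beta-actin ratio went with array number. Deviations of same-numbered arrays from genotype means correlated between -0.06 and 0.46 over 9 pairs, 5 of them over 0.1. Between arrays of different genotype and number they correlated between -0.51 and 0.27. The permutation tests took no account of array number and treated the arrays as interchangeable, so their p-values leave out what same-numbered arrays share. The labels call the samples biological replicates.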

Additional observations from a re-analysis of the deposited data

How the results depend on the processing

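No member probe set passed an adjusted p of 0.05 in any comparison under any of 22 alternatives (values as deposited, median centring, pseudocounts of 1 and 64, no filter or a filter at the 20th percentile, eBayes without trend or robust, array weights, fits of single genotype pairs, a block for replicate number, each array left out, the arrays numbered 1 left out, and the actin ratio as a covariate, the last chosen after seeing the data). With the replicate block, 0 member probe sets passed in each comparison, as without it. Pairs of Arntl with a clock gene past the threshold, 6 of 22, numbered 0 with values centred on genotype means and permuted within genotypes (smallest p possible 0.00463, so a lone pair could not pass, and the count says little), 0 without the arrays numbered 1 (6 arrays, so fewer pairings), and between 0 (without heterozygous 1) and 9 (without mutant 1) with an array left out; the cause was not tested. On leading probe sets, signs of Arntl, Clock, Npas2, Cry1, Cry2, Nfil3 and Bhlhe40 for mutant against heterozygous held in 22 of 22, with Bhlhe40 as small as -0.0065. In other comparisons some signs turned: Nfil3 mutant against wild-type in 3 of 22 (0.22 without the arrays numbered 1, 0.05 with array weights, 0.03 without wild-type 1), Cry1 mutant against wild-type in 2 of 22 (0.16 without mutant 1, 0.10 without the arrays numbered 1), Clock mutant against wild-type without wild-type 3 (0.02), Clock heterozygous against wild-type without heterozygous 3 (-0.01), Cry2 mutant against wild-type without the arrays numbered 1 (-0.05), and Bhlhe40 heterozygous against wild-type with array weights (0.05). Npas2 ranged from 0.09 to 0.64 for mutant against wild-type, from -0.82 to -0.01 for heterozygous against wild-type and from 0.45 to 1.14 for mutant against heterozygous. With 3 arrays per genotype, differences of the size of the spread between mice could not be called.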
